A study of Mus musculus with 17 samples.

Results

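Expression of the genes for DNA break signalling and repair, with the break kinase Atm among them, was examined in mouse B cells. The members were taken from a list of 47 gene symbols, of which 44 were found in the deposited expression table of 18554 symbols. The other three, Rad9a, Rad51b and Rad51d, were not analysed here. All 44 passed the filter used for testing, a value of at least 1 TPM (transcript abundance per length, scaled to a fixed total in each library) in at least 2 libraries. Of these, 34 reached that value in every one of the 17 libraries and 10 fell short of it in at least 1. The reference was wild type (WT), with 3 libraries. The label Sf3b1 MT (3 libraries) stands for the Sf3b1 mutation, Atm MT (6 libraries) for deletion of Atm, and DM (3 libraries) for the 2 lesions combined. The last group, DM-CLL (2 libraries, replicates 4 and 5), has the same lesions as DM and carries the label of chronic lymphocytic leukaemia. All mice were C57BL/6 and are called old in the sample titles, and both lesions are restricted to B cells per the series title. The Cre driver and the part of Atm that was deleted are not given in the sources used here. The labels do not say whether replicates came from separate mice, so p-values measure only the spread between these libraries.

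Cells answer a DNA double-strand break through 3 related kinases. ATM is called to the break by a complex of MRE11, RAD50 and NBN, ATR with its partner ATRIP answers stretches of single-stranded DNA, and DNA-PKcs, the product of Prkdc, works with the Ku proteins in end joining. The kinases mark the histone variant H2AX, activate the checkpoint kinases CHK1 and CHK2, and pass breaks to homologous recombination or to end joining. B cells make programmed breaks when they rearrange and switch their immunoglobulin genes, and ATM is among the genes lost in human chronic lymphocytic leukaemia.

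The start regions of 5 members are shown because these genes carry the calls described below: Atm, Dclre1c and Parp2 for the comparisons among double mutants, and Xrcc5 and Bard1 for DM-CLL against both DM and WT. Each is read 5′ to 3′ on the gene's own strand, from the RefSeq promoter table of build GRCm38.p6. Each begins 250 bases before the RefSeq start and stops where the gene's GENCODE annotation begins. Capitals mark 3 kinds of word searched on both strands: the CCAAT box (CCAAT, read as ATTGG on the other strand), 4 E2F-type words (TTTCCCGC, TTTCGCGC, TTTGCCGC and TTTGGCGC) and the CHR word TTTGAA.
Atm, chr9:53536741-53536921 (minus strand): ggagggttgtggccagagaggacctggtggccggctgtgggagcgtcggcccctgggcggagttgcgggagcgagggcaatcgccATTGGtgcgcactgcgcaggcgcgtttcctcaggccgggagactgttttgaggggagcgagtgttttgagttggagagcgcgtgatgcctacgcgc
Dclre1c, chr2:3423881-3424130 (plus strand): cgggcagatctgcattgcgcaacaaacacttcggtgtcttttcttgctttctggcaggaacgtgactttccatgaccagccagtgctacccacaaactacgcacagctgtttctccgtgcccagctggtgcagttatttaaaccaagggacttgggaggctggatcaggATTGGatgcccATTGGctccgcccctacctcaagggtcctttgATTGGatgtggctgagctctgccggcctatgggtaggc
Parp2, chr14:50807666-50807840 (plus strand): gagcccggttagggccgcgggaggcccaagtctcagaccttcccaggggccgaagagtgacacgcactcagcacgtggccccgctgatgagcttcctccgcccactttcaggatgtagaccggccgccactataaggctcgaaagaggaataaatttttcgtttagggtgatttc
Xrcc5, chr1:72307171-72307420 (plus strand): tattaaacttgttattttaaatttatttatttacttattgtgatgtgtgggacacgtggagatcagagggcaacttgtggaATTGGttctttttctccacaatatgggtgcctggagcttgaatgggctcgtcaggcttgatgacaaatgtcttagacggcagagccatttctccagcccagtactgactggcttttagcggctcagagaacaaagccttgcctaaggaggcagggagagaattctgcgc
Bard1, chr1:71103147-71103222 (minus strand): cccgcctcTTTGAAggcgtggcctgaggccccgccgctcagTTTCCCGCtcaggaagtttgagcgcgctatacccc
The Dclre1c region holds 3 CCAAT boxes, those of Atm and Xrcc5 hold 1 each, and that of Parp2 holds none of the words. The Bard1 region holds 1 E2F-type word and 1 CHR word. Over the full 250 bases, 34 members had an entry in the table, and 15 of them (44.1%) held a CCAAT box, against 37.5% of all 27025 symbols and 40.8% of those tested. An E2F-type word was held by 5 members (14.7%), namely Bard1, Brca2, Chek2, Mdc1 and Topbp1, against 2.16% of all symbols and 4.06% of those tested. The CHR word was held by 3 members (8.82%), against 18.3% and 12.9%. The RefSeq starts of Atm and of Npat, a histone gene activator on the opposite strand, lie 376 bases apart, and the Atm region shown lies between them. Wrn, Nbn, H2afx, Fancd2, Rad50, Xrcc2, Rbbp8, Rif1, Exo1 and Prkdc had no entry.

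Most members were expressed at a few TPM. The median over libraries ran from 0.67 TPM for Exo1, a resecting exonuclease, to 85.8 TPM for Parp1, the main sensor of single-strand breaks. Parp1, Xrcc1 (24.9 TPM), Parp2 (23.2 TPM), Topbp1 (18.6 TPM) and Mdc1 (13.9 TPM) had the highest medians. Exo1, Chek1 (0.83 TPM) and Brca2 (0.96 TPM) had medians below 1 TPM. Within groups, the SD of log2 values was 0.66 for Fanca, larger than for 94.5% of tested genes, and 0.57 for Xrcc3. It was smallest for Atrip (0.13), Mre11a (0.16) and Brca2 (0.18), though adding 1 before the log narrows the spread of a gene as low as Brca2. The median SD was 0.32 over members and 0.29 over all tested genes.

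Atm itself (chromosome 9, 53439149 to 53536740, GRCm38) measured 7.57, 8.87 and 6.48 TPM in WT and 6.88, 3.11 and 5.80 TPM in Sf3b1 MT. In Atm MT it ran from 4.24 through a median of 5.775 to 15.56 TPM. In DM it measured 4.08, 2.54 and 3.61 TPM, and in DM-CLL 7.78 and 9.20 TPM. The 3 DM libraries lay below every WT, Atm MT and DM-CLL library, whereas Atm MT spanned the WT values and held the highest library of the series. Total Atm RNA does not test the deletion, since gene-level values do not resolve exons. The order of the group means was DM-CLL (8.49 ± 1.0 TPM, SD), WT (7.64 ± 1.20), Atm MT (7.50 ± 4.23), Sf3b1 MT (5.26 ± 1.94) and DM (3.41 ± 0.789). Each pair of neighbours in this order overlapped in its libraries.

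Atr, the kinase for single-stranded DNA (chromosome 9, 95857597 to 95951781), measured 6.74, 7.96 and 5.18 TPM in WT and 6.42, 2.40 and 3.63 TPM in Sf3b1 MT. In Atm MT it ran from 3.86 through 7.915 to 14.29 TPM, in DM it measured 4.31, 2.62 and 4.25 TPM, and in DM-CLL 7.67 and 10.02 TPM. The libraries that were high and low in Atr were largely those that were high and low in Atm: Atm MT replicate 6 was highest for both, and Sf3b1 MT replicate 2 and DM replicate 3 were the lowest pair for both. Prkdc, the third kinase, measured 5.67, 6.49 and 5.19 TPM in WT, 3.77, 2.78 and 3.27 TPM in DM, and 5.63 and 6.75 TPM in DM-CLL. Its DM libraries lay below those of WT and DM-CLL, as for Atm. Atrip, which recruits ATR, was flatter, at 3.04 to 5.64 TPM over all 17 libraries.

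**Figure D1:**
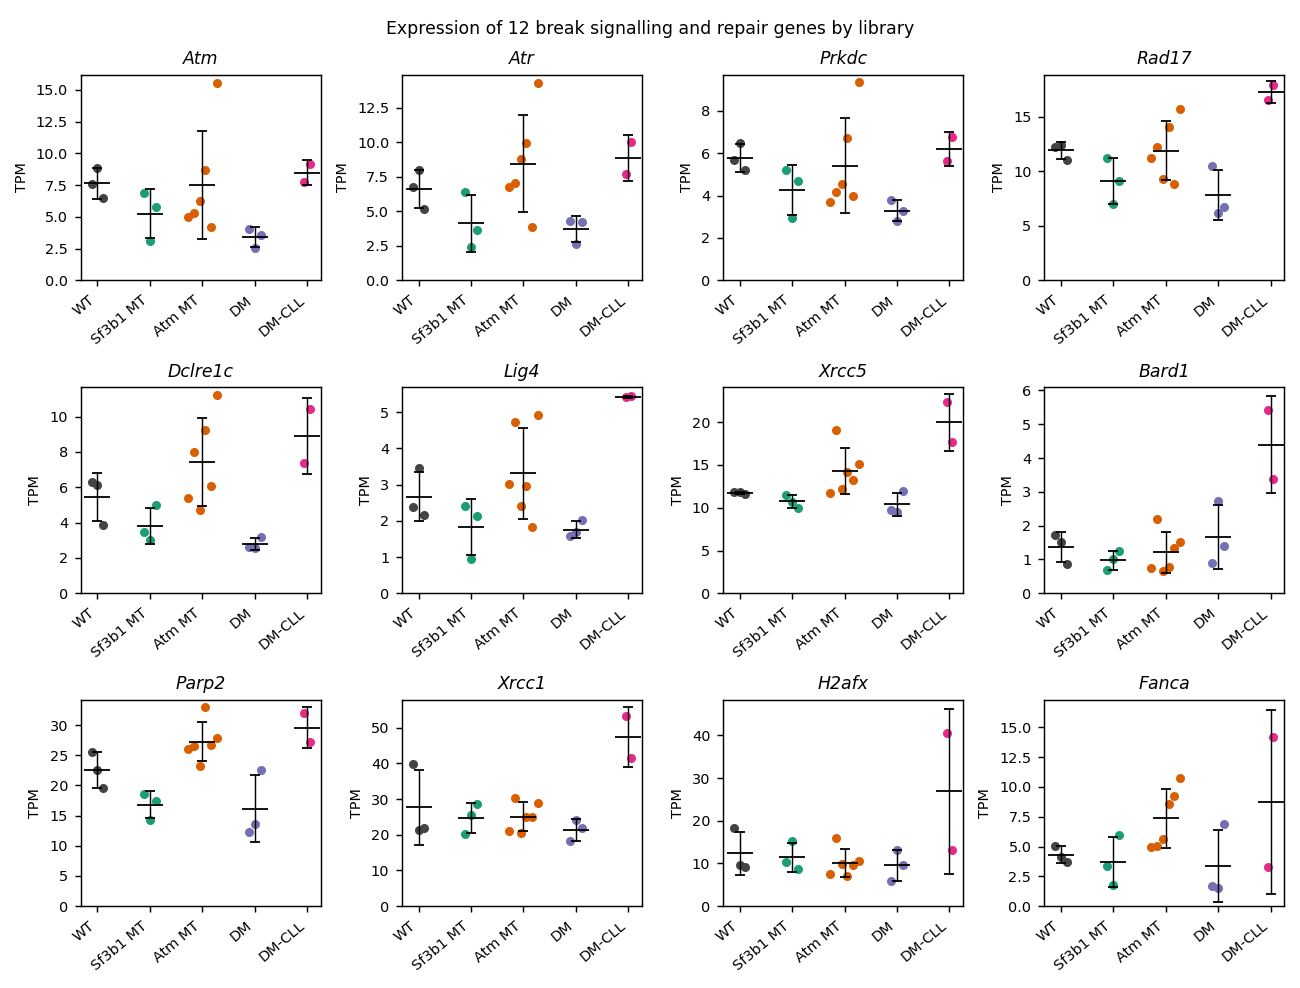
TPM of 12 members by library, in 5 groups along the horizontal axis. Points are libraries, and the line and bar are the group's mean and SD (n = 3, 3, 6, 3 and 2). Dclre1c and Lig4 in DM-CLL lie above all 3 DM libraries, and Atm in Atm MT spans 4.24 to 15.56 TPM.

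Dividing Atm by another gene of the same library gave a measure in which a shift shared by both genes cancels. The ratio was chosen after the values had been seen and is given without a test. Atm over Atr was 1.11 to 1.25 in WT and 1.07 to 1.60 in Sf3b1 MT. It was 0.714 to 1.10 in Atm MT, 0.849 to 0.970 in DM and 0.918 to 1.01 in DM-CLL. All DM and DM-CLL libraries, which carry the Atm deletion, lay below all 6 libraries without it, and the Atm MT libraries lay below WT but reached into the Sf3b1 MT range. Atm over Npat, its neighbour, showed no such order: it was 1.75 to 1.82 in WT, 1.36 to 1.95 in Sf3b1 MT, 1.23 to 2.27 in Atm MT, 0.898 to 1.54 in DM and 1.47 to 1.63 in DM-CLL. Nor did Prkdc over Atm, which was 0.732 to 0.801 in WT, 0.754 to 0.945 in Sf3b1 MT, 0.602 to 0.941 in Atm MT, 0.906 to 1.09 in DM and 0.724 to 0.734 in DM-CLL. The order seen with Atr was thus not seen with either other gene.

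**Figure D2:**
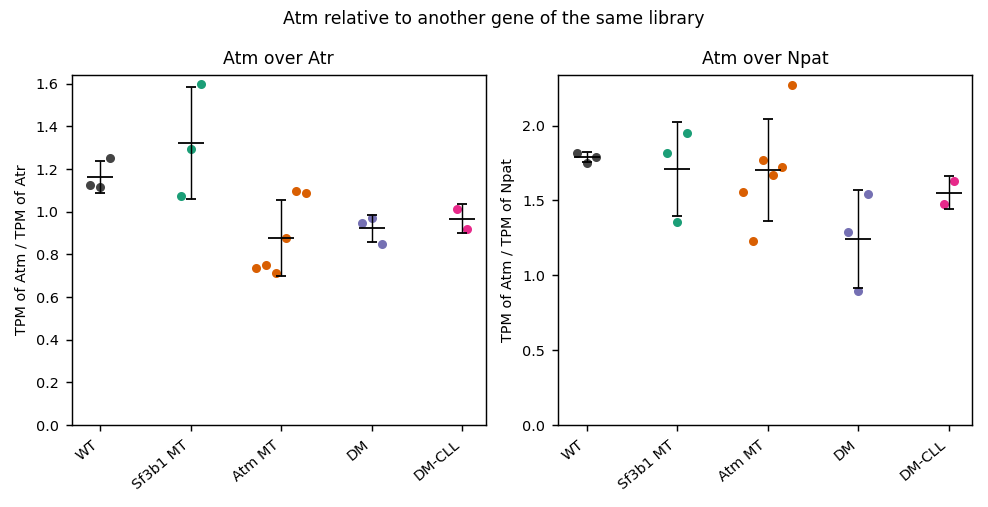
TPM of Atm divided by TPM of Atr (left) or of Npat (right) in each library, by group. Points are libraries, and the line and bar are the mean and SD. Atm over Atr is 0.714 to 1.10 in the groups with the Atm deletion and 1.07 to 1.60 in the groups without it.

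For the Sf3b1 mutation alone, the comparison with WT asked whether a changed splicing factor moved repair gene levels. Of 44 members, 0 rose and 0 fell in limma at an adjusted p of 0.05, beside 0% and 0.0707% of all tested genes. An unadjusted p below 0.05 was found for 3 members, beside 1047 of all 9898 tested genes. Log2 ratios were below 0 for 39 of 44 members, with a median of −0.24 against −0.11 over all tested genes. That median of all genes went from −0.05 in the shortest of 4 equal groups by transcript length to −0.20 in the longest. Members have long transcripts, with a median of 4708 nucleotides against 3351, and the part of length was not tested. The smallest p-values were those of Xrcc4, the scaffold of the end-joining ligase (log2 −0.63, adjusted p = 0.430), Xrcc3, a homologous recombination gene (−1.0, adjusted p = 0.445), and Rbbp8, which starts resection (−0.58, adjusted p = 0.449). In 4 members (9.09%) every Sf3b1 MT library lay below every WT library and in 1 above, against 17.1% and 2.4% of all tested genes. Xrcc3 rested on WT replicate 1, at 15.34 TPM beside 3.46 and 3.79 TPM in the other WT libraries.

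For the Atm lesion alone no member passed. In limma 0 of 44 rose and 0 fell, beside 0.202% and 0.445% of all tested genes. An unadjusted p below 0.05 was found for 1 member, beside 1118 of all 9898 tested genes. Log2 ratios had a median of −0.06 over members and −0.05 over all tested genes, with 17 members above 0 and 27 below. Xrcc3 (−1.05, adjusted p = 0.230), Rnf8, a ubiquitin ligase at breaks (−0.51, adjusted p = 0.489), and Fanca, a core Fanconi protein (0.61, adjusted p = 0.583), had the smallest p-values. The value of Xrcc3 again included the high WT replicate 1, and over omissions of 1 library it ran from −1.38 to −0.44. In 0 members did the groups not overlap in either direction, against 1.62% of all genes with Atm MT higher and 3.48% with it lower. Libraries labelled Atm MT replicates 1 to 4 held 800.5 to 1470 TPM of 9 summed macrophage markers, against at most 242.6 TPM in any library of the other groups, and the part of these cells in the member levels was not tested.

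With both lesions, DM against WT again gave 0 rises and 0 falls among members in limma, beside 0.152% and 2.08% of all tested genes. An unadjusted p below 0.05 was found for 12 of 44 members, beside 2372 of all 9898 tested genes. The median was −0.32 over members and −0.25 over all tested genes, and 33 members lay below 0. In 14 of 44 members (31.8%) every DM library lay below every WT library, near the 28.1% of all tested genes, and in 0 members above it, against 2.06%. Rbbp8 measured 6.94, 6.53 and 4.59 TPM in WT and 3.02, 3.44 and 2.53 TPM in DM (log2 −0.80, adjusted p = 0.0978). Dclre1c (−0.74, adjusted p = 0.131) and Atm (−0.98, adjusted p = 0.131) followed. None of these 3 overlapped between groups, and none passed. All 3 fell when libraries were weighted, as did 5 other members. With these weights 1933 of all 9898 tested genes passed, against 221 without them. Against Sf3b1 MT, DM also had 0 members passing, beside 0.0404% rising and 0.0808% falling of all tested genes. This comparison had 2 members at an unadjusted p below 0.05, beside 1096 of all 9898 tested genes. Its smallest p-values were for Atrip (−0.49, adjusted p = 0.234), Parp1 (−0.39, adjusted p = 0.412) and Rnf8 (−0.52, adjusted p = 0.554), and the member median was −0.04 against −0.11. The groups did not overlap in 2 members (4.55%), both lower in DM, against 14.7% of all genes lower and 3.88% higher.

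The comparison of DM with Atm MT, which differ in the Sf3b1 mutation, gave 2 falls and 0 rises. These were 4.55% of the members, beside 4.52% of all tested genes that fell and 1.54% that rose. In 4 members (9.09%) every DM library lay below every Atm MT library and in 0 above, near the 9.5% and 2.21% of all genes. Dclre1c (chromosome 2, 3424131 to 3464130), whose 3 CCAAT boxes are shown above, encodes Artemis, the nuclease that opens hairpin ends before joining. It ran from 4.74 through 7.045 to 11.22 TPM in Atm MT and measured 2.64, 2.57 and 3.17 TPM in DM. All DM libraries lay below all Atm MT libraries, and the log2 ratio was −1.11 ± 0.23 (SE; adjusted p = 0.0278), or −0.90 relative to the median of all genes, which was −0.21. Parp2 (chromosome 14, 50807841 to 50821301), a second break-sensing polymerase of ADP-ribose, ran from 23.20 through 26.65 to 33.0 TPM in Atm MT and measured 12.21, 13.68 and 22.54 TPM in DM. Here too the groups did not overlap, though DM replicate 6 came within 1 TPM of the lowest Atm MT library (log2 −0.76 ± 0.17, adjusted p = 0.0329). Both calls were lost without Atm MT replicate 4 (adjusted p = 0.0626 and 0.0727), without DM replicate 1 (adjusted p = 0.0758 and 0.111) and without DM replicate 3 (adjusted p = 0.155 and 0.187). Both were also lost without Atm MT replicates 1 to 4, the libraries high in macrophage markers, at log2 −1.30 for Dclre1c (adjusted p = 0.0541) and −0.77 for Parp2 (adjusted p = 0.0672). The 8 B-cell markers summed to 2120 to 2989 TPM in DM and 3035 to 4238 TPM in Atm MT, without overlap, and the 9 macrophage markers to 135.7 to 242.6 TPM and 83.18 to 1470 TPM. Their part in the falls was not tested.

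By role, the 3 apical kinase genes had a median of −0.84 in DM against Atm MT and end joining genes −0.55, while homologous recombination genes had 0.00 and Fanconi genes 0.25. Atm (−0.84 ± 0.31, adjusted p = 0.0974), Atr (−0.93 ± 0.31, adjusted p = 0.0719), Topbp1, an activator of ATR (−0.65 ± 0.20, adjusted p = 0.0590), and Fanca (−1.10 ± 0.36, adjusted p = 0.0711) did not pass. Member transcripts are long, with a median of 4708 nucleotides against 3351 over all genes, and 22 of 44 are over 4740 nucleotides, the length above which the longest of 4 equal groups of genes begins. Over all tested genes the median log2 ratio in this comparison went from −0.12 in the group of shortest transcripts through −0.16 and −0.23 to −0.30 in the longest. In DM against WT it went from −0.17 in the shortest to −0.34 in the longest. The part of length in the member values was not tested. The interaction of the lesions was DM less Sf3b1 MT less Atm MT plus WT. It gave 0 members passing in limma, beside 0% of all tested genes in either direction. It had 2 members at an unadjusted p below 0.05, beside 546 of all 9898 tested genes. Its smallest p-values were for Atrip (−0.48, adjusted p = 0.878), Xrcc3 (1.22, adjusted p = 0.892) and Dclre1c (−0.69, adjusted p = 0.896). The value of Xrcc3 included its high WT replicate 1 and ran from 0.62 to 1.55 over omissions of 1 library.

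**Figure D3:**
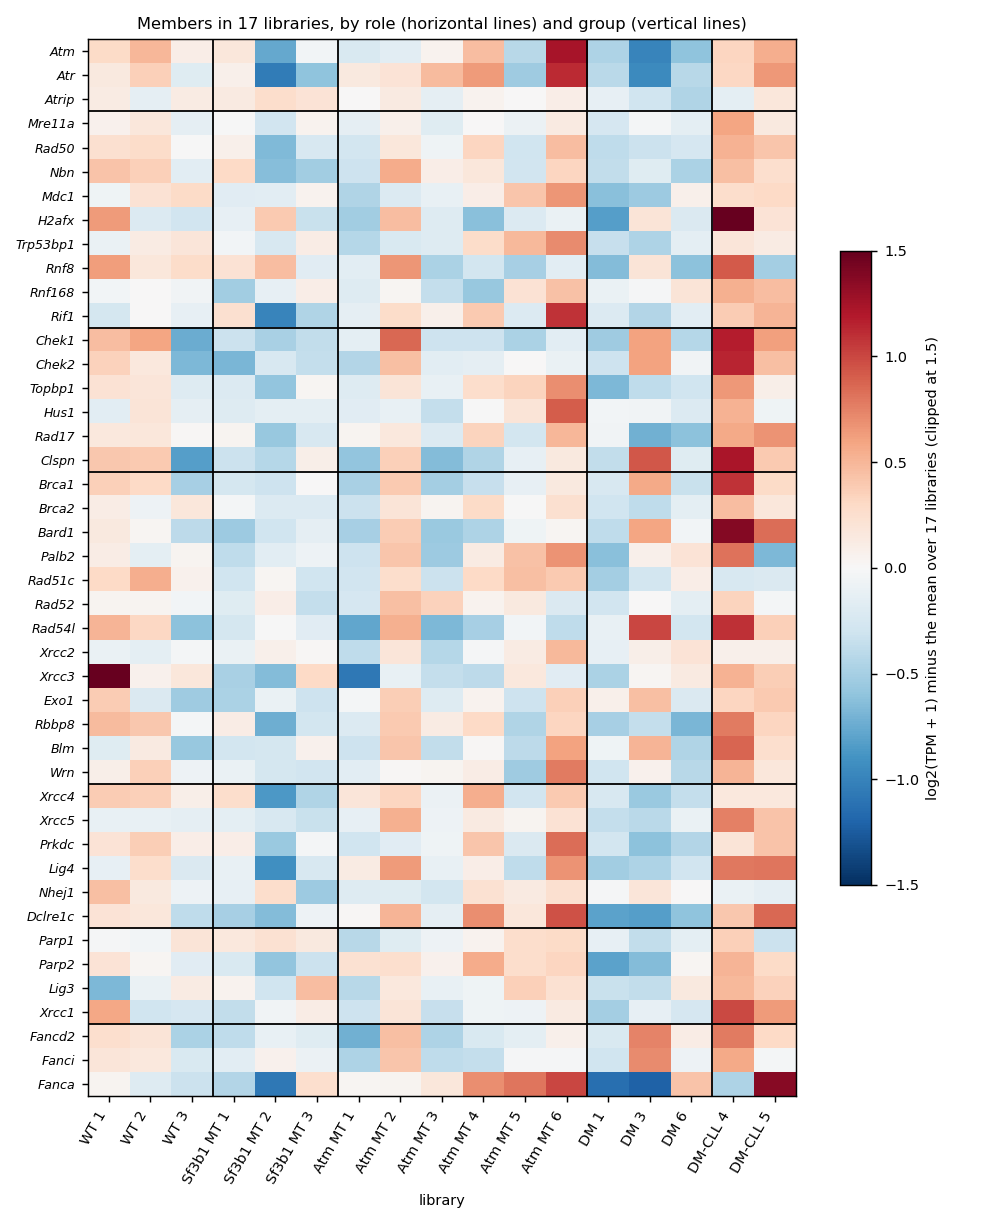
Log2(TPM + 1) of 44 members (rows, in 7 role groups) in 17 libraries (columns, in 5 groups), each gene less its mean over all libraries, red for higher and blue for lower. DM-CLL replicate 4 holds the highest value of 20 members (45.5%, against 29.6% of all genes) and Atm MT replicate 6 that of 11 (25%, against 19.6%).

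Leukaemic against nonleukaemic double mutants was the comparison in which most members moved. Of 44 members 15 rose (34.1%) and 0 fell, beside 29.2% of all tested genes that rose and 1.97% that fell. The share of members is near that background. The median log2 ratio was 0.63 over members and 0.43 over all tested genes, and 43 of 44 members lay above 0. The median of all genes went from 0.36 in the group of shortest transcripts to 0.54 in the longest, and the part of length was not tested. In 26 members (59.1%) both DM-CLL libraries lay above all DM libraries, against 47.3% of all genes, and in 1 both lay below, against 6.05%. DM-CLL replicate 4 held the highest value of the series for 20 members (45.5%), against 29.6% of all genes. DM-CLL replicate 5 held it for 3 members (6.82%), against 12.9% of all genes.

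The counts by role that follow are small and stand beside the same 29.2% of all tested genes. Among the end joining genes 3 of 6 rose (50%). Dclre1c measured 7.38 and 10.45 TPM in DM-CLL beside 2.57 to 3.17 TPM in DM (log2 1.37 ± 0.30, adjusted p = 0.00341; 0.94 relative to all genes). Lig4, which seals the joined ends (chromosome 8, 9969049 to 9977686), measured 5.41 and 5.45 TPM in DM-CLL and 1.57, 1.69 and 2.02 TPM in DM (1.22 ± 0.30, adjusted p = 0.00730). Xrcc5, the larger Ku subunit (chromosome 1, 72307421 to 72394952), measured 22.38 and 17.66 TPM beside 9.79, 9.47 and 11.94 TPM (0.88 ± 0.19, adjusted p = 0.00341). In each of the 3, both leukaemic libraries stood well clear of the DM range. Prkdc did not pass (0.75 ± 0.30, adjusted p = 0.0638), nor did Xrcc4 (0.54, adjusted p = 0.154). Nhej1, the XLF protein of the same ligase complex, was the 1 member below 0, at 2.18 and 2.11 TPM in DM-CLL beside 2.36, 2.85 and 2.42 TPM in DM (−0.17, adjusted p = 0.614).

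Of the single-strand break genes 2 of 4 rose (50%, beside 29.2%). Xrcc1, the scaffold of that pathway (chromosome 7, 24546289 to 24573440), measured 53.27 and 41.41 TPM in DM-CLL and 18.14, 24.0 and 21.91 TPM in DM (1.11 ± 0.26, adjusted p = 0.00463). Parp2 measured 31.97 and 27.15 TPM in DM-CLL (0.88 ± 0.22, adjusted p = 0.00845), above its DM libraries and inside the range of Atm MT. Parp1 did not pass, and its DM-CLL libraries, at 111.08 and 69.26 TPM, spanned the DM values of 79.71, 67.02 and 77.84 TPM (0.23, adjusted p = 0.431).

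Among kinases and sensors, Atm (1.12 ± 0.39, adjusted p = 0.0378) and Atr (1.07 ± 0.39, adjusted p = 0.0453) rose, with the values given above. Of break sensing genes 3 of 9 rose (33.3%, beside 29.2%). Rad50, the tethering subunit of the sensor complex (chromosome 11, 53649519 to 53707319), measured 11.72 and 10.77 TPM beside 5.76, 6.05 and 6.42 TPM (0.79 ± 0.25, adjusted p = 0.0234). Its nuclease partner Mre11a rose with 9.27 and 6.56 TPM beside 4.73, 5.66 and 5.16 TPM (0.51 ± 0.19, adjusted p = 0.0463), or 0.08 relative to all genes. H2afx, the gene of the marked histone, measured 40.56 and 13.21 TPM beside 5.98, 13.16 and 9.62 TPM (1.26 ± 0.43, adjusted p = 0.0350). Its rise rested on DM-CLL replicate 4: the other leukaemic library lay 0.05 TPM above DM replicate 3, and without replicate 4 the log2 ratio was 0.48 (adjusted p = 0.502). Trp53bp1, a chromatin reader that favours end joining, measured 6.87 and 6.57 TPM beside 4.47, 4.03 and 5.29 TPM and did not pass (0.47, adjusted p = 0.208).

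Of the checkpoint genes 2 of 6 rose (33.3%, beside 29.2%). Rad17, which loads the checkpoint clamp (chromosome 13, 100617164 to 100651051), measured 16.55 and 17.93 TPM beside 10.44, 6.21 and 6.76 TPM (1.08 ± 0.25, adjusted p = 0.00486). Topbp1 measured 29.15 and 19.47 TPM beside 11.02, 13.76 and 14.56 TPM (0.82 ± 0.26, adjusted p = 0.0267). The checkpoint kinases Chek1 (1.02 ± 0.43, adjusted p = 0.0817) and Chek2 (0.72 ± 0.34, adjusted p = 0.111) did not pass. Of 13 homologous recombination genes 3 rose (23.1%, beside 29.2%). Rbbp8 measured 8.76 and 6.13 TPM beside 3.02, 3.44 and 2.53 TPM (1.07 ± 0.29, adjusted p = 0.0112). Bard1, the partner of BRCA1 (chromosome 1, 71027498 to 71103146), measured 5.41 and 3.39 TPM beside 0.89, 2.72 and 1.40 TPM (1.05 ± 0.32, adjusted p = 0.0222). Brca2, a mediator of homologous recombination, measured 1.70 and 1.20 TPM beside 0.60, 0.50 and 0.77 TPM (0.59 ± 0.21, adjusted p = 0.0399), or 0.16 relative to all genes. Brca1 did not pass (0.69, adjusted p = 0.141), and neither did any of the 3 Fanconi genes. For Fanca, the DM-CLL libraries measured 3.27 and 14.20 TPM and the DM libraries 1.68, 1.53 and 6.90 TPM, so that both groups held high and low libraries (1.10 ± 0.53, adjusted p = 0.127).

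**Figure D4:**
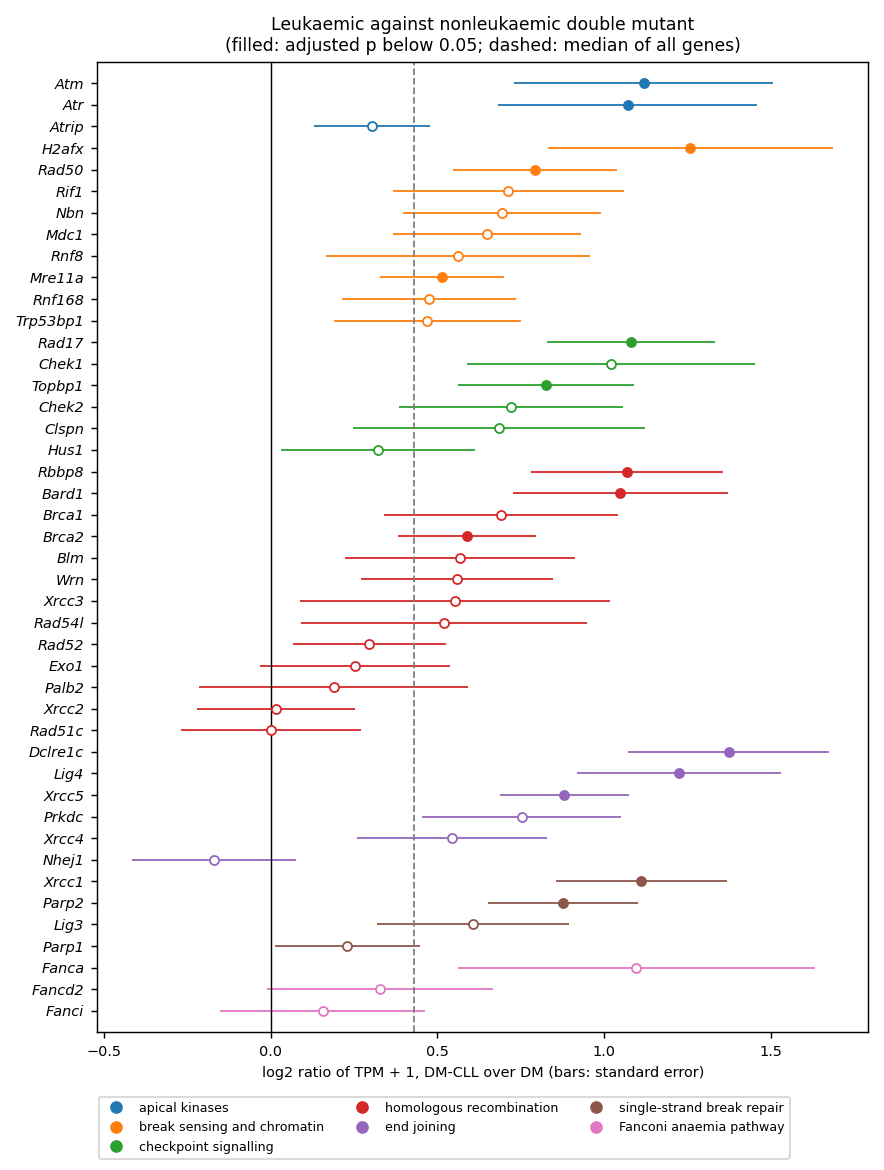
Log2 ratio of TPM + 1 for DM-CLL (n = 2) over DM (n = 3) with its standard error, for 44 members by role. Filled points are the 15 that passed, the dashed line is the median of all tested genes at 0.43, and Nhej1 is the only point left of 0.

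The number of rises depended on how the libraries were scaled. After median-ratio scaling, which took the median of all genes from 0.43 to −0.03, 1 of 44 members passed, Dclre1c. Of all 9898 tested genes 1622 then passed in either direction, against 3084 without this scaling. The genes in the table held 43.1% to 48.4% of the TPM total in DM libraries and 52.9% to 59.7% in DM-CLL libraries. Rescaling to a common total took the median of all genes from 0.43 to 0.18 and left 1504 of all tested genes passing. Of the members 5 then passed, namely Dclre1c, Lig4, Rad17, Xrcc1 and Xrcc5. Without DM replicate 1 the count of members was 7, and the median of all genes also moved, from 0.43 to 0.39. Without DM-CLL replicate 4 that median was 0.34. Rad17, Lig4 and Dclre1c passed in all 17 omissions of 1 library, whereas Atr passed in 5, Mre11a in 6 and Atm in 12. Atm was lost without any 1 of the DM or DM-CLL libraries (adjusted p = 0.0537 to 0.137).

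Set against WT, fewer members passed in the leukaemic libraries. Of 44 members 3 rose (6.82%) and 0 fell, beside 10.3% of all tested genes that rose and 2.81% that fell, and the median was 0.32 over members and 0.19 over all genes. In 16 members (36.4%) both DM-CLL libraries lay above all WT libraries, against 32.2% of all genes, and in 2 (4.55%) below, against 11.7%. Bard1 rose from 1.73, 1.52 and 0.87 TPM in WT (log2 1.18 ± 0.32, adjusted p = 0.0219). Xrcc5 rose from 11.83, 11.86 and 11.63 TPM (0.71 ± 0.19, adjusted p = 0.0220). Xrcc1 rose from 39.90, 21.20 and 21.90 TPM (0.80 ± 0.26, adjusted p = 0.0483), with WT replicate 1 close to the lower leukaemic library. This call held in 4 of 17 omissions of 1 library and in 0 of 8 other settings, whereas Bard1 passed in 15 omissions and Xrcc5 in 13. All 3 calls were lost without DM-CLL replicate 4 (adjusted p = 0.214 to 0.302) and without WT replicate 3 (adjusted p = 0.0561 to 0.157). Without WT replicate 2 Bard1 alone passed, and without WT replicate 1 Xrcc5 did not (adjusted p = 0.0547). Of the other settings, a pseudocount of 0.1 and library weights also lost Bard1 (limma, adjusted p = 0.052 and 0.058). A block for the replicate number and a fit of only the groups compared lost both Bard1 and Xrcc5 (adjusted p = 0.0558 to 0.135). Dclre1c (0.63, adjusted p = 0.193), Lig4 (0.82, adjusted p = 0.0885) and Atm (0.14, adjusted p = 0.857) did not pass. The comparisons with DM and with WT share the leukaemic libraries. DM-CLL replicate 4 also held 7894 TPM of 5 summed erythroid markers, 1374 TPM of 8 neutrophil markers and 173.2 TPM of 5 T-cell markers, against 16.19, 112 and 10.28 TPM in DM-CLL replicate 5. The 8 B-cell markers summed to 3334 to 3718 TPM in DM-CLL and 2120 to 2989 TPM in DM, and to 3720 to 4796 TPM in WT. The part of these cells in the member levels was not tested, and in bulk RNA fewer cells of a type and less RNA per cell cannot be told apart.

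Some members linked to DNA replication, brought together after their values were seen, differed widely between libraries of the same group. The within-group SD of log2 values was 0.53 for Clspn and 0.52 for Chek1. For Topbp1 and Brca2, which hold an E2F-type word, it was 0.30 and 0.18. Chek1 measured 2.13, 2.41 and 0.35 TPM in WT, 0.56, 2.43 and 0.68 TPM in DM, and 4.13 and 2.46 TPM in DM-CLL. Its Sf3b1 MT libraries were all low, at 0.81, 0.62 and 0.75 TPM, and in Atm MT it was 3.12 TPM in replicate 2 and at most 1.04 TPM in the others. Clspn, the adaptor that brings CHK1 to ATR, followed the same libraries, with 3.32, 3.27 and 0.84 TPM in WT, 1.53, 5.23 and 1.87 TPM in DM, and 3.19 TPM in Atm MT replicate 2. Brca1 measured 3.09, 2.94 and 1.26 TPM in WT and 1.70, 3.75 and 1.53 TPM in DM. Rad54l, a recombination motor, measured 3.21, 2.66 and 0.94 TPM and 1.74, 4.95 and 1.45 TPM. WT replicates 1 and 2, DM replicate 3, Atm MT replicate 2 and DM-CLL replicate 4 were, with DM-CLL replicate 5, the 6 highest libraries of each of these 4 genes, so that WT and DM each split. The mean log2 value of 23 DNA replication and S phase genes was 4.23, 4.0 and 3.26 in WT, 3.69, 4.95 and 3.62 in DM, and 5.01 and 3.94 in DM-CLL. It was 4.42 in Atm MT replicate 2 beside 3.21 to 3.63 in the other Atm MT libraries, and 3.624, 3.949 and 3.845 in Sf3b1 MT. Sf3b1 MT replicate 2 thus lay at the level of DM-CLL replicate 5, while Chek1 measured 0.62 TPM in the former and 2.46 TPM in the latter. Of these 23 genes 0 passed in any of the 8 comparisons in limma, with 0 to 2 at an unadjusted p below 0.05, beside 29.2% of all tested genes that rose in DM-CLL against DM. Of 20 mitosis genes 1 rose there (Cenpf), and 0 passed in the other comparisons, with 0 to 3 at an unadjusted p below 0.05. Over all 9898 tested genes 546 to 4292 had such a p-value in the 8 comparisons. In DM against Atm MT the mitosis genes had a median of 0.65 and the S phase genes 0.52, against −0.21 over all tested genes. The part of cycling cells in the levels of the 4 members was not tested.

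**Figure D5:**
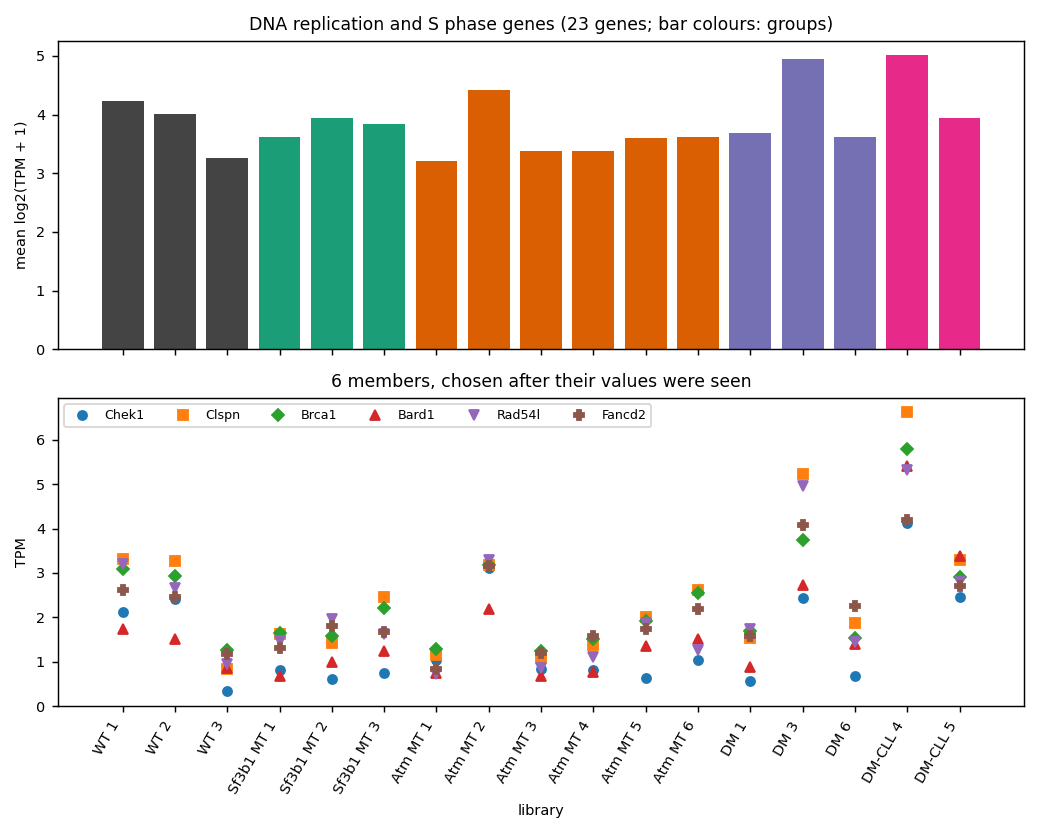
Mean log2(TPM + 1) of 23 DNA replication and S phase genes (top, bars coloured by group) and TPM of 6 members (bottom) in each of 17 libraries. DM replicate 3 and DM-CLL replicate 4 are highest in the top panel, at 4.95 and 5.01, and hold the highest Clspn values, at 5.23 and 6.63 TPM.

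Other repair genes gave a setting for the members. The deposited values cover 104 of the listed genes, and 99 of them were tested. In DM-CLL against DM 29 rose (29.3%) and 0 fell, with a median of 0.50, close to the 29.2% and 0.43 of all tested genes. By adjusted p the first 5 were Ercc6 (1.60), the clamp subunit Rad1 (1.13), Smug1 (1.36), Xrcc6 (1.02) and Rmi1 (1.29). Rad1, Smug1 and Xrcc6 all lie on chromosome 15, whereas Xrcc5 lies on chromosome 1. The part of the shared chromosome in these rises was not tested. Xrcc6, the partner of Xrcc5 in Ku, measured 48.04 and 35.53 TPM in DM-CLL, above every other library, where it ran from 16.04 to 25.75 TPM. It rose against DM (adjusted p = 0.00171) and against WT (1.07 ± 0.20, adjusted p = 0.00204), so that both Ku genes rose in both comparisons. Against WT 10 of the 99 rose (10.1%, beside 10.3% of all tested genes), led by Xrcc6, Telo2, Nthl1, Apex1 and Rad23b, and 1 fell, the base excision glycosylase gene Mutyh (−0.74, adjusted p = 0.0481).

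In DM against Atm MT 5 of the 99 other repair genes fell (5.05%, beside 4.52% of all tested genes), namely Rmi1, Fancb, Msh3, Ddb2 and Polm, and 0 rose. Rmi1, a subunit of the BLM dissolution complex, ran from 11.09 to 19.63 TPM in Atm MT and measured 5.61, 5.18 and 8.28 TPM in DM (log2 −1.13 ± 0.21, adjusted p = 0.0227). It also fell in DM against WT (−1.18, adjusted p = 0.0267), the 1 other repair gene to do so, and rose in DM-CLL against DM, at 18.80 and 14.77 TPM (adjusted p = 0.00228). Its DM libraries lay below every WT, Atm MT and DM-CLL library, as those of Dclre1c did, and these comparisons share the DM libraries. Npat rose with Atm in DM-CLL against DM (0.78 ± 0.28, adjusted p = 0.0455). In the interaction, in DM against Sf3b1 MT and for each single lesion against WT, 0 of the 99 passed in limma, with 2 to 8 at an unadjusted p below 0.05. Over all 9898 tested genes 546 to 1118 had such a p-value in these comparisons.

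Some member values may include reads of overlapping genes, since strand handling in the authors' counting is not given in the sources used here. The largest shares of annotated exon bases shared with another gene were 25.1% for Lig3 with Rffl, 16% for Atrip with Trex1, 16% for Fanci with Polg and 15.4% for Rad54l with Lrrc41. For Dclre1c the share was 3.83%, with Suv39h2. Pairs of libraries had Pearson's r of 0.875 to 0.981 across genes, which are not independent replicates.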

How the data were processed

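The authors deposited TPM (transcript abundance scaled to a fixed total) for 18554 gene symbols in 17 libraries of poly(A) RNA, made with the PrepEase RNA Spin and NEBNext Ultra kits per the labels' protocols. The submitters' processing notes name STAR and mm10; the quantifier, annotation and versions are not given in the sources used here. Over the genes in the table, TPM summed to 43.1% to 59.7% of that total per library, so part of each total lies in features not listed. The sum was 43.1% to 48.4% in DM and 52.9% to 59.7% in DM-CLL, without overlap. It was 44.1% to 57.2% in WT, 44.1% to 58.1% in Sf3b1 MT and 44.9% to 56.1% in Atm MT. TPM keep no read counts, so the depth is unknown and no counting interval or detection floor is given. No column was left unmapped.

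Values were log2-transformed after adding 1, so changes of low genes are understated. The 9898 genes with at least 1 TPM in at least 2 libraries were fitted with limma 3.58.1 in R 4.3.3 (group means, moderation along a mean trend, 2-sided tests). The Benjamini-Hochberg adjustment ran over all genes tested, per comparison, with 0.05 as the threshold. Comparisons with DM-CLL used all 17 libraries and the others 15. The pipeline was tested on simulated data. Tables were handled with Python 3.11.15, pandas 2.3.3 and numpy 2.4.6, and figures drawn with matplotlib 3.10.9. Positions came from GENCODE on GRCm38 and promoter sequences from RefSeq (GRCm38.p6). Rose and fell are used only of genes that passed.

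The members, the other gene lists and the tests were chosen with earlier results of these data known. Named genes were Atm, Atr, Prkdc, Chek1, Chek2, Trp53bp1, H2afx, Brca1, Parp1 and Rad50, then members that passed anywhere, then the 3 smallest p-values where none passed, and up to 5 other repair genes per direction. Other genes were named after their values were seen, and some results are not reported here. Alternatives were a pseudocount of 0.1, no filter, median-ratio scaling, library weights, rescaling to a common total, a block for the replicate number, only the groups compared, omission of Atm MT replicates 1 to 4, and omission of each library in turn. With 1 DM-CLL library omitted, the lone library was taken to vary as the other groups do.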

Additional observations from a re-analysis of the deposited data

Results flagged for a closer look

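In the 6 Atm MT libraries, 1 library stood far from the others for 4 of the 44 members. Chance would mark about 1 group in 20 for independent normal values, but by the same measure 12.1% of all 9886 tested genes with any spread were marked in these libraries, beside 9.09% of the members. The ubiquitin ligase gene Rnf8 measured 8.28 TPM in Atm MT replicate 2, against 3.14 to 4.25 TPM in the other 5. Chek1 measured 3.12 TPM in the same library, against 0.63 to 1.04 TPM. Rif1, which protects broken ends from resection, measured 9.69 TPM in Atm MT replicate 6, against 3.37 to 5.58 TPM. Hus1, a subunit of the checkpoint clamp, measured 6.56 TPM in that library, against 2.15 to 3.61 TPM. Atm MT replicate 2 also had the highest mean of S phase genes in its group, and Atm MT replicate 6 held the highest value of 11 members (25%), against 19.6% of all genes. The part of either in these 4 values was not tested.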

How the results depend on the processing

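Counts of members passing in the interaction, in DM against Sf3b1 MT and for each single lesion against WT were 0 under every alternative and omission tried. In DM against WT, where none passed, library weights gave 8 (Atm, Dclre1c, Mdc1, Parp2, Rad51c, Rbbp8, Rnf8 and Topbp1), the replicate block 2 (Atm and Mdc1), and omissions 0 to 1. In DM against Atm MT, where 2 passed, the count was 0 without the filter, after rescaling to a common total, with only the groups compared and without Atm MT replicates 1 to 4. It was 1 after median-ratio scaling (Dclre1c), 8 with library weights, 4 with the replicate block and 0 to 4 over omissions (4 without Atm MT replicate 5). In DM-CLL against DM, where 15 passed, median-ratio scaling gave 1, a common total 5, the replicate block 3, only the groups compared 8, and omissions 4 to 16. In DM-CLL against WT, where 3 passed, the pseudocount of 0.1, library weights and the replicate block gave 1 each, the last a fall of Rad51c, only the groups compared gave 0, and omissions 0 to 3. The log2 ratio of Atm changed sign in Atm MT against WT without Atm MT replicates 1 to 4 (0.12) and in DM-CLL against WT after median-ratio scaling (−0.035). The causes of these shifts were not tested. Of 18 same-numbered pairs of libraries, whose deviations from the group means correlated at −0.363 to 0.364, 4 were above 0.1. No differently numbered pairs are given beside them, so these values do not settle whether replicate numbers pair the samples. Counts over all genes also moved: for DM-CLL against DM 3084 passed, 1622 after median-ratio scaling, 1504 after rescaling and 1247 with the block; for DM against Atm MT 599 passed, 368 after median-ratio scaling, 68 after rescaling, 57 with only the groups compared, 155 without the filter, 27 without Atm MT replicates 1 to 4 and 2173 with library weights; for DM against WT 221 passed, 27 after median-ratio scaling, 54 after rescaling, 35 with only the groups compared, 1131 with the block and 1933 with library weights. For DM-CLL against WT 1299 of all tested genes passed, against 1209 with the pseudocount of 0.1 and 945 with library weights. With the block 755 passed in that comparison, and with only the groups compared 778. In DM-CLL against DM 1644 passed with only the groups compared, and in DM against Atm MT 751 passed with the block. Depth is unknown, and DM-CLL has 2 libraries, which limits every statement on it.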
